A study of Mus musculus with 4 samples.

Results

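The genes of DNA replication and of the step from G1 into S phase were examined in TH17-polarised mouse CD4 T cells that received JQ1 or its solvent. A list of 50 genes set the members, and a gene was kept where the array table had a row annotated to that gene alone, the row with the highest mean standing for the gene. Of the 50, 46 had such a row, among 14860 genes in all. Pcna, Rfc2, Lig1 and Rrm2 were not analysed here.

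The starting cells were naive CD4 T cells, bead-purified from C57BL/6 spleens to a stated purity above 90%. Beads carrying anti-CD3 and anti-CD28 activated them in a TH17 mixture: TGF-β1, IL-6 and IL-23, plus blocking antibodies to IFN-γ and to IL-4. The only difference by label was the drug, 150 nM of the BET bromodomain inhibitor JQ1 or DMSO, for 48 hours, although the culture description also mentions a stimulation of 4 days. Each group had 2 samples, each with its RNA on an Affymetrix exon array. The labels do not give the age or sex of the mice, nor say whether the replicates were separate mice or cultures. The p-values here therefore reflect sample-to-sample spread alone, and that spread may be technical. For each gene, limma weighs the gene's own spread together with that of all genes.

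Before S phase, the origin recognition complex with Cdc6 and Cdt1 loads the ring-shaped MCM helicase onto DNA. The kinases Cdc7-Dbf4 and cyclin E-Cdk2 then help Cdc45 and the GINS complex join it, which starts the forks that the DNA polymerases follow. Most of these genes are targets of the E2F transcription factors, which are freed from the RB proteins as a cell commits to division. Naive T cells rest, and they turn this programme on when the T cell receptor and CD28 are engaged.

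The promoters are shown first because E2F sites are the best known sequence feature of these genes. RefSeq promoter sequences on GRCm38.p6, from 250 bases before to 50 after the annotated start, were found for 39 of the 46 genes (46 promoters). Mcm4, Gins1, Gins2, Gins4, Prim2, Pole and Ccne2 had none in the table used. E2F letters were searched on both strands as TTTCCCGC, TTTCGCGC, TTTGCCGC or TTTGGCGC, with overlapping matches counted separately. They stood in 14 of the 46 promoters (30.4%), against 744 of all 32851 promoters (2.26%) and 473 of the 14927 promoters of genes on the array table (3.17%). The CCAAT box, as CCAAT on either strand, stood in 27 of the 46 (58.7%) and in 37.4% of all promoters. The CHR element of mitotic genes, as TTTGAA on either strand, stood in 10 of the 46 (21.7%) and in 17.9% of all. A match is a description of letters and not a bound site. Of the 5 promoters below, all with E2F matches, Mcm3, Gins3 and Rfc3 belong to genes with some of the lowest changes, and Mcm6 and Mcm7 to genes with changes nearer to 0. Capitals mark the E2F matches, 2 of the 3 matches in Mcm6 overlap, the Mcm7 promoter is 1 of 2 in the table, and each sequence runs 5′ to 3′ along the gene.
Mcm3, chr1:20820263-20820562, minus strand: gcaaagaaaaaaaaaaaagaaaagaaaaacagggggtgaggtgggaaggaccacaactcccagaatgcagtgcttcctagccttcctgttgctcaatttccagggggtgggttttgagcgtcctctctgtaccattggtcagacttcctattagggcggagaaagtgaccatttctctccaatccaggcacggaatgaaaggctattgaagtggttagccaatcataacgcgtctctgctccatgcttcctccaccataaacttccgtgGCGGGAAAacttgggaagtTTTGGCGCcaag
Gins3, chr8:95633309-95633608, plus strand: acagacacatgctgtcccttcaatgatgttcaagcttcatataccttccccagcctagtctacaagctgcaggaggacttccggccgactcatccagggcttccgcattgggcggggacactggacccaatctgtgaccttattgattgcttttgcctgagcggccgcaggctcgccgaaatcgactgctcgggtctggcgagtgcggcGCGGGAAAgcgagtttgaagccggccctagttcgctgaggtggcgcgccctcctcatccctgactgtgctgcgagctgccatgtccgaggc
Rfc3, chr5:151651159-151651458, minus strand: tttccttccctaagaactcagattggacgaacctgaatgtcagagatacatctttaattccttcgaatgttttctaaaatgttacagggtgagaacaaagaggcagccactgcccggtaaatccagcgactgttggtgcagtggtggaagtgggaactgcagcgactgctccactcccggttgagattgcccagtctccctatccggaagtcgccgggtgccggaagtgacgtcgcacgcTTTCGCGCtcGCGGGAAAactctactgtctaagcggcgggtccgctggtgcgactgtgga
Mcm6, chr1:128359656-128359955, minus strand: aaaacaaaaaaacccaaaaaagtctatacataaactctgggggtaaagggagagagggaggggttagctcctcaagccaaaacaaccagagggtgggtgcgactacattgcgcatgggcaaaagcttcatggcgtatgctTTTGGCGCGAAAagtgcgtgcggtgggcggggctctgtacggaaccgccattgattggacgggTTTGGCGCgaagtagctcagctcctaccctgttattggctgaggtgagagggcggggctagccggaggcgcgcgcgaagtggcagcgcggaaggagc
Mcm7, chr5:138171834-138172133, minus strand: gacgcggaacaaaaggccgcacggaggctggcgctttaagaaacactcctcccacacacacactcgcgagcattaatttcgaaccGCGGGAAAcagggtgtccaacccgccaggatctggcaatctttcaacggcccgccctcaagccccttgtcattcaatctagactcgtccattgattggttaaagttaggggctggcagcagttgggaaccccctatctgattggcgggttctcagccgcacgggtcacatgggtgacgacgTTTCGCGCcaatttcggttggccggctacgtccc

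The changes were set beside these matches. Here and below a change is the log2 signal with JQ1 minus that with DMSO. The 14 genes with an E2F match had a median change of -0.21, from -0.82 (Mcm3) to 0.10 (Mcm7), and the 25 without a match a median of -0.24, from -0.70 (E2f8) to 0.45 (Slbp). The 7 genes not in the promoter table had a median of -0.41. No test was made between these groups.

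The genes were abundant on these arrays. Their mean log2 signals ran from 5.77 for Fen1 to 10.23 for Uhrf1, and 44 of the 46 lay above 6.02, the median of all genes. On every array, 43 of the 46 exceeded 5.80, a background reference set with the data known. It is the 95th percentile of the mean signal over 799 receptor genes of smell (olfactory and vomeronasal). Pearson r across all genes was 0.981 between the DMSO arrays, 0.982 between the JQ1 arrays and 0.976 to 0.980 between groups. All 8 measured T cell markers were above the reference, with Cd2 (11.62) and Cd3e (11.13) brightest, and their summed signal was 13.68 to 13.97 with DMSO and 13.59 to 13.66 with JQ1 on the log2 scale. Myeloid and dendritic cell markers lay below it (0 of 5 and 0 of 3 above), and 1 of 3 natural killer, 1 of 4 B cell, 1 of 2 CD8 and 1 of 3 erythroid markers lay above. The summed signal of the natural killer markers was 6.93 to 7.15 with DMSO and 5.66 to 5.98 with JQ1, that of the CD8 markers 7.48 to 7.50 and 6.56 to 7.16, and that of the B cell markers 7.69 to 7.81 and 7.38 to 7.47. Among the natural killer markers only Klrd1 exceeded the reference in mean signal, and its change was -1.73. Ncr1 (-0.09) and Klre1 (-0.0035) lay under the reference, with overlapping groups. Whether natural killer, CD8, B or erythroid cells were present, and their part in the results below, was not tested. The summed TH17 markers were at 11.71 to 11.97 with DMSO and 9.31 to 9.37 with JQ1. In RNA of a whole culture, fewer cells in S phase and less RNA per cell cannot be told apart.

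**Figure D1:**
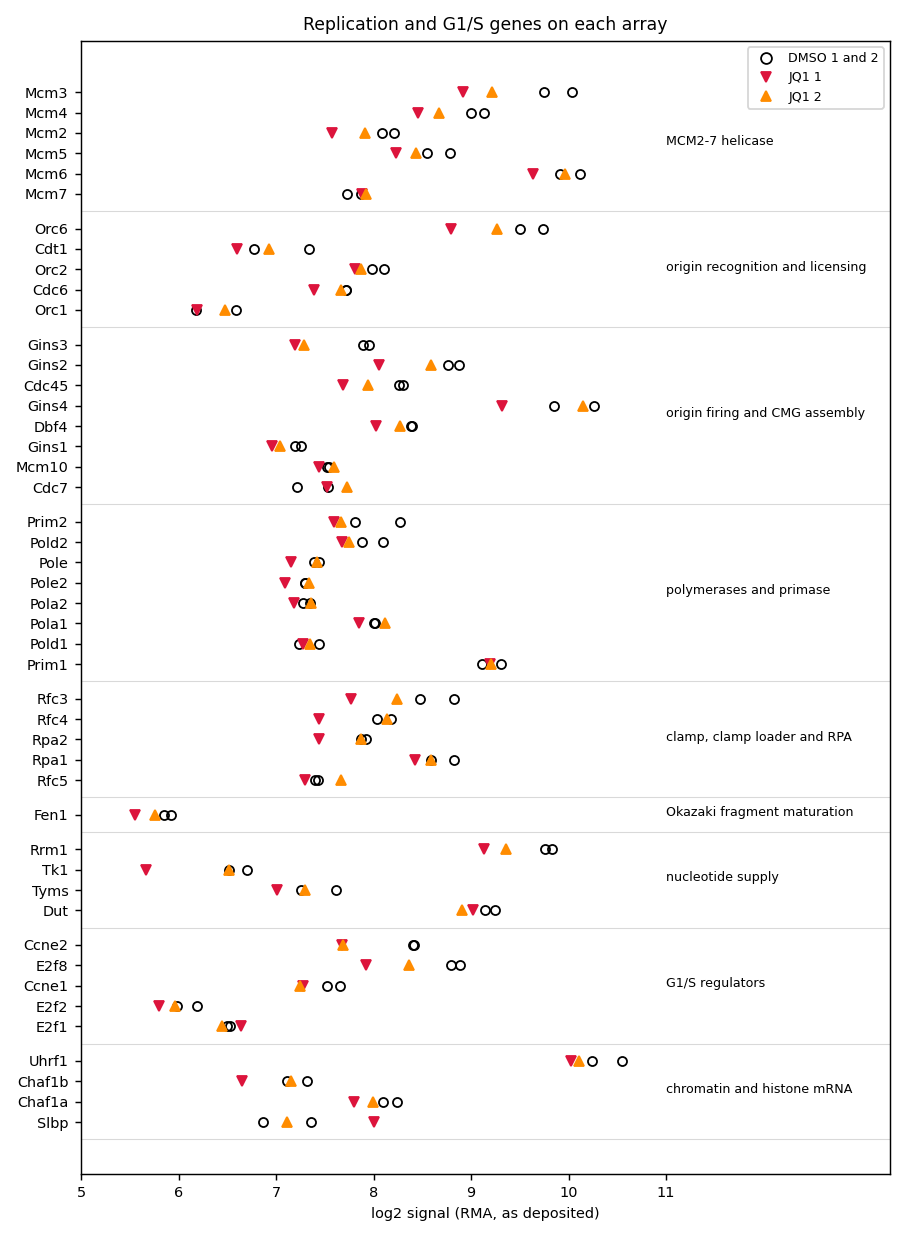
Log2 signal of the 46 genes on each of the 4 arrays, grouped by role and ordered by change within each role. Open circles are the DMSO arrays, the down-pointing triangle JQ1 replicate 1 and the up-pointing triangle JQ1 replicate 2. For 37 of the 46 genes the lowest of the 4 values is that of JQ1 replicate 1, where 35.6% of all genes are lowest on that array.

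As a set the genes were modestly lower with JQ1, and none passed the test across all genes. The median change of the 46 was -0.25 against -0.09 for all 14860 genes, and 41 were below 0, where 66.2% of all genes were. The range ran from -0.82 for Mcm3 to 0.45 for Slbp, so no gene reached a 2-fold difference. With limma and Benjamini-Hochberg adjustment over all genes, 0 of the 46 passed as lower, where 0.00673% of all genes did, and 0 as higher, where 0% did. The adjusted p-values ran from 0.270 (Ccne2) to 0.990 (Mcm10). At an unadjusted p below 0.05, 9 of the 46 were lower, where 8.26% of all genes were, and 0 were higher, where 1.72% were. The 9 were Ccne2, Gins3, Mcm3, E2f8, Rrm1, Mcm4, Cdc45, Rfc3 and Orc6. Both JQ1 arrays lay below both DMSO arrays for 25 of the 46, where 31.4% of all genes did, and above them for 1, Mcm7, where 10% did. Of the 44 genes above the median of brightness, 9 were lower at an unadjusted p below 0.05 in limma, where 11.4% of all genes above that median were. Of the same 44, both JQ1 arrays lay below both DMSO arrays for 23, where 38.9% of all genes above that median did.

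The change of all genes moved with brightness. The median change of all genes went from 0.0014 at mean signals up to 4 to -0.16 between 8 and 9 and -0.20 above 9. Each gene was therefore also set against the median of the 500 genes nearest to it in mean signal. On that scale the median of the 46 was -0.13, and 34 lay below genes of equal brightness, where 49.9% of all genes did, and 12 above. The lowest were Mcm3 (-0.61), Ccne2 (-0.58), Gins3 (-0.57), E2f8 (-0.54) and Rfc3 (-0.49), and the highest Slbp (0.56) and Cdc7 (0.39). After cyclic loess between arrays, which removes trends with brightness before the fit, the median of the 46 was -0.12. Then 6 of the 46 were lower at an unadjusted p below 0.05 in limma, where 5.42% of all genes were, and 0 higher, where 3.67% were. These 6 were Mcm3, Gins3, Rfc3, Rrm1, Ccne2 and E2f8. On the same scale the JQ1 arrays lay below both DMSO arrays for 17 of the 46, where 19.8% of all genes did, and above for 6, where 20.4% did.

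**Figure D2:**
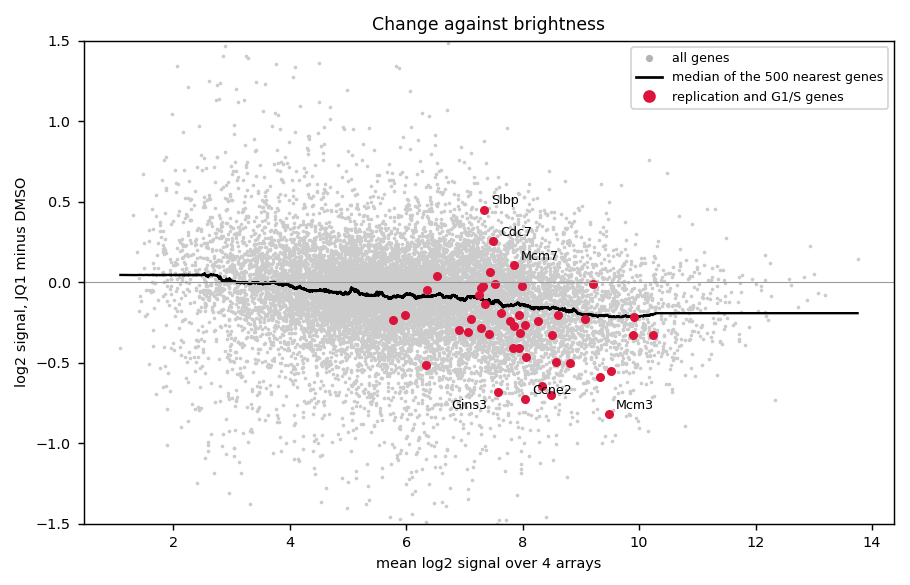
Change (log2 signal, JQ1 minus DMSO) against the mean log2 signal over 4 arrays for all genes (grey), with the 46 replication and G1/S genes in red and the median of the 500 nearest genes as a black line. The black line drifts below 0 toward brighter genes, and 34 of the 46 red points lie under it. The 43 genes with a change beyond 1.5 in either direction are outside the axis.

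The size of the set's difference rested much on single arrays, and most on JQ1 replicate 1. Against equal brightness it rested nearly as much on DMSO replicate 2. JQ1 replicate 2 read higher than JQ1 replicate 1 for 42 of the 46 genes, where 54.4% of all genes did, with a median gap of 0.22. DMSO replicate 1 was above DMSO replicate 2 for 25 of the 46, where 59.8% of all genes did, with a median gap of 0.02. Without JQ1 replicate 1 the median change was -0.13, with 33 of 46 below 0, where 66.2% of all genes were with every array kept. Against equal brightness the median was -0.04, with 25 of 46 below, near the 49.9% of all genes below with every array kept. Without JQ1 replicate 2 the same medians were -0.36 and -0.15, and without DMSO replicate 2 they were -0.20 and -0.05. Without DMSO replicate 1 they were -0.26 and -0.15. In limma without JQ1 replicate 1, Mcm3, Gins3 and Ccne2 were lower at an unadjusted p below 0.05, where 4.64% of all genes were, and these 3 were also lower at that p with any other array left out. Such a fit leaves 1 group with a single array, which is assumed to vary like the other group.

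**Figure D3:**
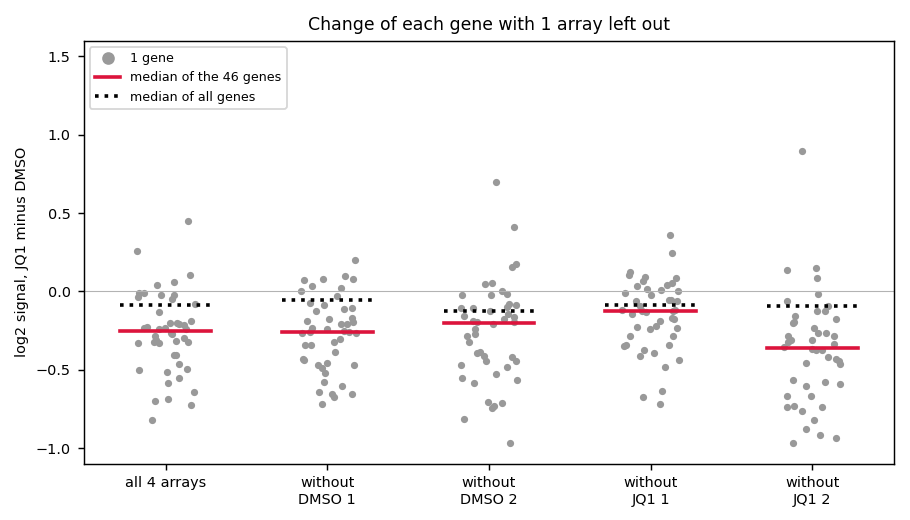
Change of each of the 46 genes (grey points; log2 signal, JQ1 minus DMSO) with all 4 arrays and with each array left out. Red bars are the median of the 46 genes and dotted black bars the median of all genes. The medians lie closest without JQ1 replicate 1 (-0.13 and -0.09) and farthest apart without JQ1 replicate 2 (-0.36 and -0.09).

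The 6 subunits of the replicative MCM helicase gave unequal values although they act as 1 ring. Mcm3 read 10.04 and 9.74 on the DMSO arrays and 8.92 and 9.22 on the JQ1 arrays. The groups did not overlap, and the change of -0.82 (SE 0.19, interval -1.29 to -0.35) was a 1.77-fold lower signal. Mcm4 read 9.13 and 9.0 with DMSO and 8.46 and 8.67 with JQ1, again without overlap (change -0.50, SE 0.16). Mcm2 read 8.21 and 8.08 with DMSO and 7.57 and 7.91 with JQ1 (change -0.41, interval -0.85 to 0.04). Mcm5 read 8.78 and 8.54 with DMSO and 8.23 and 8.44 with JQ1 (change -0.33, interval -0.75 to 0.10). For Mcm2 and Mcm5 the JQ1 arrays lay under the DMSO arrays, but the interval included 0. Mcm6 had a change of -0.22 with overlapping groups, and it was at -0.0031 relative to genes of equal brightness and above 0 after quantile normalization. Mcm7 read 7.73 and 7.87 with DMSO and 7.88 and 7.92 with JQ1, a change of 0.10 with an interval from -0.26 to 0.47. It was the 1 gene of the 46 whose JQ1 arrays both lay above the DMSO arrays. The difference between the subunits was not tested.

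Among the genes that mark and license origins, Orc6 was lowest. Orc6, the smallest subunit of the origin recognition complex, read 9.73 and 9.5 with DMSO and 8.79 and 9.26 with JQ1, with no overlap (change -0.59, SE 0.21, interval -1.12 to -0.05). Orc1 was at -0.05, and above 0 after centring, quantile normalization or cyclic loess, and Orc2 at -0.21, both with intervals that included 0. Cdc6, the ATPase that helps load the helicase, read 7.71 and 7.72 with DMSO and 7.39 and 7.66 with JQ1. Its JQ1 replicate 2 lay close under the DMSO arrays (change -0.19, interval -0.60 to 0.22). Cdt1, the partner of Cdc6 in loading, read 6.78 and 7.34 with DMSO and 6.60 and 6.93 with JQ1, and its groups overlapped (change -0.30, interval -0.91 to 0.31).

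The factors that fire origins and complete the active helicase held 7 of 8 changes below 0, where 66.2% of all genes were. Relative to genes of equal brightness 6 of the 8 were below, where 49.9% of all genes were, with a median of -0.12. Gins3, a subunit of the 4-part GINS complex, read 7.95 and 7.89 with DMSO and 7.19 and 7.29 with JQ1. Replicates differed little here and the groups stood well apart (change -0.68, SE 0.14, a 1.61-fold lower signal). The other GINS subunits were at -0.49 (Gins2), -0.33 (Gins4) and -0.23 (Gins1), and Gins4 had overlapping groups with JQ1 arrays at 9.32 and 10.14 and a change of 0.09 without JQ1 replicate 1. Cdc45, which binds the helicase together with GINS, read 8.26 and 8.30 with DMSO and 7.69 and 7.94 with JQ1, without overlap (change -0.47, SE 0.16). Mcm10, a fork factor that is not part of the ring, read 7.54 and 7.52 with DMSO and 7.44 and 7.60 with JQ1, so the DMSO values lay between those with JQ1 (change -0.01, and above 0 after centring, quantile normalization or cyclic loess). The kinase pair differed in sign, with its interval including 0 for each. Cdc7, the catalytic subunit, read 7.21 and 7.53 with DMSO and 7.52 and 7.73 with JQ1 (change 0.25, interval -0.20 to 0.71), while Dbf4, its activator, was at -0.24.

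The DNA polymerases and primase were the role nearest to 0, with a median change of -0.06, or 0.05 above genes of equal brightness. None of the 8 was at an unadjusted p below 0.05 in limma, where 8.26% of all genes were lower and 1.72% higher. For a list of 8 genes a count of 0 is near those shares. Pola1, the catalytic subunit of the polymerase that starts new strands, read 8.01 and 8.01 with DMSO and 7.85 and 8.11 with JQ1 (change -0.03, interval -0.43 to 0.38). Prim1, the primase that makes the RNA primer, read 9.30 and 9.12 with DMSO and 9.19 and 9.20 with JQ1, so the JQ1 values lay between those with DMSO (change -0.01, interval -0.39 to 0.36). Pold1, the catalytic subunit of the lagging-strand polymerase, read 7.43 and 7.23 with DMSO and 7.27 and 7.35 with JQ1, again inside the DMSO range (change -0.02). Pola2, Pole2 and Pole ranged from -0.13 to -0.04. The signs of Pola1, Pola2, Prim1, Pold1 and Pole2 turned positive after centring, quantile normalization or cyclic loess. Pole was at 2.9e-05 after quantile normalization, which is 0 in practice. Prim2, the large primase subunit (-0.41), and Pold2 (-0.27) had JQ1 arrays below both DMSO arrays, with intervals that included 0.

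The clamp loader and the single-strand binding protein RPA gave mixed values. Rfc3, a subunit of the loader that sets the PCNA clamp on DNA, read 8.82 and 8.47 with DMSO and 7.77 and 8.24 with JQ1, without overlap (change -0.64, SE 0.22, interval -1.21 to -0.08). Rfc5, of the same complex, read 7.43 and 7.40 with DMSO and 7.29 and 7.66 with JQ1, which enclosed the DMSO values (change 0.06). Rfc4 was at -0.32, with JQ1 arrays at 7.44 and 8.14, and it was at 0.03 without JQ1 replicate 1. Rpa1 (-0.20) and Rpa2 (-0.24) had intervals that included 0. Fen1, the nuclease that trims Okazaki fragments, was at -0.23 with JQ1 arrays below both DMSO arrays and a signal near the background reference.

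All 4 measured genes of nucleotide supply had changes below 0, where 66.2% of all genes did. Relative to genes of equal brightness all 4 were also below, where 49.9% of all genes were. Their median on that scale was -0.26, with Dut nearest to 0 at -0.03. Rrm1, the large subunit of ribonucleotide reductase, read 9.83 and 9.76 with DMSO and 9.13 and 9.35 with JQ1, without overlap (change -0.55, SE 0.16, interval -0.95 to -0.16). Tk1, the thymidine kinase of S phase, read 6.51 and 6.70 with DMSO and 5.67 and 6.52 with JQ1. Its change of -0.51 (interval -1.26 to 0.23) rested on JQ1 replicate 1: JQ1 replicate 2 lay inside the DMSO range and the change without JQ1 replicate 1 was -0.09. Tyms, thymidylate synthase, was at -0.28 with overlapping groups, and Dut, which removes dUTP, at -0.23 without overlap. Both intervals included 0.

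Among the regulators of the G1/S step, both E-type cyclins read lower with JQ1 while E2f1 did not. Ccne2, cyclin E2, read 8.42 and 8.40 with DMSO and 7.67 and 7.69 with JQ1, so replicates were close and the groups far apart by comparison. Its change of -0.73 (SE 0.14, interval -1.08 to -0.38, a 1.66-fold lower signal) had the smallest p of the 46 (limma unadjusted p = 0.00267, adjusted p = 0.270), and with 1 array left out it stayed between -0.74 and -0.72. Ccne1, cyclin E1, read 7.65 and 7.52 with DMSO and 7.28 and 7.24 with JQ1, without overlap (change -0.32, interval -0.69 to 0.04). E2f8, an atypical E2F that represses E2F targets, read 8.89 and 8.80 with DMSO and 7.92 and 8.36 with JQ1, without overlap (change -0.70, SE 0.19). E2f1, an activating E2F, read 6.49 and 6.52 with DMSO and 6.64 and 6.45 with JQ1, which enclosed the DMSO values (change 0.04, interval -0.34 to 0.42). E2f2, another activator, was at -0.20 with signals near the background reference.

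The genes that handle chromatin behind the fork and histone mRNA spanned both signs. Uhrf1, which guides the methylation of newly made DNA, read 10.55 and 10.24 with DMSO and 10.02 and 10.11 with JQ1 (change -0.33, interval -0.76 to 0.10). Its groups did not overlap, and its change was -0.13 relative to genes of equal brightness. Chaf1a (-0.27) and Chaf1b (-0.31), subunits of the histone chaperone CAF-1, had intervals that included 0. Slbp, which binds the stem-loop of histone mRNAs, had the highest change of the 46, at 0.45 with an interval from -0.40 to 1.3. It read 6.86 and 7.36 with DMSO and 8.0 and 7.12 with JQ1, so the groups overlapped, and without JQ1 replicate 1 its change was 0.0070.

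**Figure D4:**
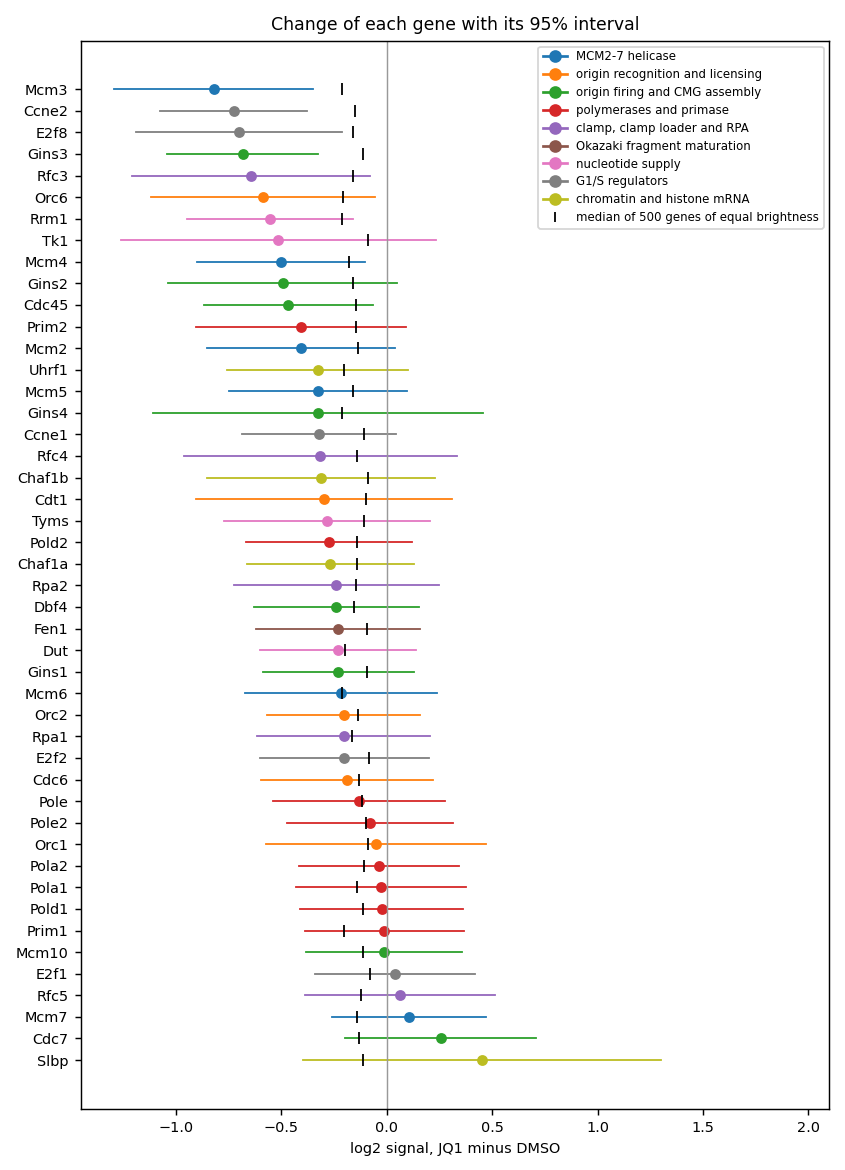
Change of each of the 46 genes (log2 signal, JQ1 minus DMSO) with its 95% interval from limma, ordered by change and coloured by role. Black ticks are the median change of the 500 genes of equal brightness. The intervals of 37 genes include 0.

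Other genes of the same pathway were read in the same way. The counts stand against 8.26% (lower) and 1.72% (higher) of all genes at an unadjusted p below 0.05 in limma. Among all genes above the median of brightness, 11.4% were lower at that p. Above that median lay 26 of 27, 16 of 17 and 10 of 10 measured genes of the lists that follow. Of 27 measured further replication fork and origin genes, 0 passed limma's adjusted test, 3 were lower at an unadjusted p below 0.05 and 0 higher, with a median change of -0.23. The 2 with the smallest p were Dna2, a nuclease of Okazaki fragments (-0.49, SE 0.14), and Rnaseh2b, a subunit of the enzyme that removes ribonucleotides from DNA (-0.54, SE 0.16). Dna2 read 5.83 and 5.81 with JQ1, near the background reference of 5.80. Of 17 further E2F and RB pathway genes, 2 were lower and 0 higher at that p, with a median of -0.14. These 2 were Ccna2, cyclin A2 (-0.53), and Cdc25a, a phosphatase that activates cyclin-dependent kinases (-0.43). The counts of 3 of 27 and 2 of 17 are near the share of 11.4%. Of 10 histone chaperone and maintenance methylation genes, 2 were lower and 0 higher, with a median of -0.23, and these were Hat1, a histone acetyltransferase (-0.51), and Rbbp7, a histone-binding protein (-0.51). Relative to genes of equal brightness the 3 medians were -0.08, 0.0023 and -0.05, where that of the 46 was -0.13. The differences between these lists were not tested.

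The genes of mitosis, a later phase than S, were set beside the replication genes. Of 29 measured, 17 were lower at an unadjusted p below 0.05 in limma, where 8.26% of all genes were, and 0 passed after adjustment. The JQ1 arrays lay below both DMSO arrays for 28, where 31.4% of all genes did. Above the median of brightness, where 28 of the 29 lie, these shares were 11.4% and 38.9%. Their median change was -0.48, or -0.34 relative to equal brightness, against -0.25 and -0.13 for the replication genes. Prc1, which bundles the microtubules of the spindle midzone (-1.08, SE 0.15), and Aurka, a kinase of the spindle poles (-0.83, SE 0.15), had the smallest p. JQ1 replicate 2 was above JQ1 replicate 1 for all 29, as for 42 of the 46 replication genes. The difference between the 2 lists was not tested.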

How the data were processed

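The authors deposited log2 values. Per the submitters' processing notes they were made by RMA (Affymetrix Expression Console), a method that subtracts background, gives the arrays 1 distribution and combines probes into a value per row. No source used here gives software versions or says what a row covers. The build those notes name, a human one, was not used. Of 23332 rows, 14996 carried 1 gene in the platform annotation, 1019 several and 7317 none. Symbols were taken through 14941 Entrez matches to a RefSeq table of GRCm38.p6. For 135 genes with several rows the brightest stood for the gene.

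The fit covered all 14860 genes and used limma 3.58.1 under R 4.3.3 (moderated, two-sided, 2 residual and 3.43 prior degrees of freedom, Benjamini-Hochberg adjustment, threshold 0.05), with no filter on dim genes. Intervals are at 95%. With 2 arrays in each group the smallest exact permutation p is 0.333, and the number of arrays limits the precision. Brightness was matched by the 500 nearest genes in mean signal (250 on each side, fewer on 1 side at the ends). Promoters were RefSeq sequences. Full values are given for the 8 lowest and 8 highest changes, each gene at an unadjusted p below 0.05 and a set chosen by function, and 2 genes by p from each further list. The members and lists were chosen with earlier results of these data known. The fit was tested on simulated data. Alternatives were other scalings, filters on brightness, the mean of a gene's rows, other priors of the spread, other thresholds, the replicate number as a block and each array left out. The deviations from the group means of same-numbered arrays had a correlation of 0.097 across all genes and -0.35 across the 46, and no label gives a pairing. Python 3.11.15 with matplotlib 3.10.9 made the figures.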

Additional observations from a re-analysis of the deposited data

How the results depend on the processing

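No gene of the 46 passed limma's adjusted threshold of 0.05 under any alternative run. At an adjusted p of 0.10 none passed in the fit of all genes, while Ccne2 did (0.0828) among genes above the median of brightness. Under the replicate block, a pairing that no label gives, 7 were lower at an unadjusted p below 0.05 (9 without it), where 8.32% of all genes were, with the median change still -0.25. The number lower at that p was 5 after quantile normalization (5.09% of all genes) or centring (4.57%), 3 at an unadjusted p below 0.01 (2.4%), and 3 to 14 with 1 array left out (4.64% to 8.37%). The number higher was 0 to 1 with 1 array left out, the 1 being Slbp without JQ1 replicate 2. The median change was -0.11 after quantile normalization, -0.14 after centring and -0.12 after cyclic loess, and -0.36 to -0.13 with 1 array left out. Genes whose arrays did not overlap numbered 15 lower and 8 higher after quantile normalization (18.6% and 21.9% of all genes), 16 and 4 after centring (17.2% and 22.8%) and 17 and 6 after cyclic loess (19.8% and 20.4%). With 1 array left out they numbered 26 to 39 lower (43.3% to 54% of all genes) and 3 to 7 higher (20.7% to 26.4%). Relative to equal brightness the median was -0.15 to -0.04 with 1 array left out. The scalings moved the median of all genes from -0.09 to 0.02 (quantile), 0.03 (centring) and 0.0035 (cyclic loess), and turned the sign of 7 to 9 of the 46, none of them at an unadjusted p below 0.05. Beyond the array left out or the scaling itself, the cause was not tested. The E2F share was 23.9% with TTTCGCGC or TTTGGCGC alone, against 0.813% of all promoters and 1.23% of those of genes on the array table. Fen1, E2f2 and Tk1 had a value at or under the background reference on at least 1 array.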

Other observations

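The D cyclins, their kinases and the inhibitors of cyclin-dependent kinases had a median change of -0.23. Below 0 were 10 of 11 measured genes, where 66.2% of all genes were. Relative to genes of equal brightness the median was -0.08, with 8 of the 11 below, where 49.9% of all genes were. Of the 11, 2 were lower at an unadjusted p below 0.05 in limma, where 8.26% of all genes were, and 0 higher, where 1.72% were, and none passed the adjusted test. Among all genes above the median of brightness, where 10 of the 11 lie, 11.4% were lower at that p. Cdk6, a kinase partner of the D cyclins, read 9.73 and 9.61 with DMSO and 8.87 and 8.89 with JQ1 (change -0.79, SE 0.14). Cdkn1a, which encodes the inhibitor p21, read 11.49 and 11.40 with DMSO and 10.90 and 11.02 with JQ1 (change -0.48, SE 0.15). Both genes had JQ1 arrays below both DMSO arrays. Ccnd2, at 0.03 and overlapping between groups, and Cdkn1b, at -0.01, were chosen after their values were seen.

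Of 18 measured further genes of nucleotide synthesis, 2 were lower at that p, a share near that of all genes above the median of brightness (11.4%), where all 18 lie, 0 were higher, and the median change was -0.13, or 0.07 relative to genes of equal brightness. Ctps, which makes CTP, was at -0.62 (SE 0.20) and Umps, which completes the synthesis of UMP, at -0.50 (SE 0.15), both without overlap between groups.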
